A study of Homo sapiens with 12 samples.

Results

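This comparison set 3 K562 arrays labelled with CXXC5 shRNA against 3 K562 arrays that received the empty pEGFP-C2 vector, over every probe set paired with 1 gene symbol. Those were 19064 of the 22277 probe sets on the array, and they covered 11963 genes. K562 is an established, p53-deficient human erythroleukemia line that carries the BCR-ABL1 fusion, and its labels call it an AML cell line. In every group the medium was free of serum and held Wnt3a at 100 ng/ml, and RNA was harvested after 8 h. The control cells received the EGFP vector by nucleofection, a transient electrical transfection, whereas the knockdown cells carried an shRNA from a stable lentiviral infection. Effects of the delivery, of the vector and of the shRNA against CXXC5 therefore cannot be told apart in this difference. A further 3 arrays of cells stably infected with a scrambled shRNA share the delivery of the knockdown arrays. Their values are given beside many results, but not beside every named gene. The last 3 arrays of the series came from cells nucleofected with EGFP-CXXC5. A pair of CXXC5 shRNA clones is named without saying which sample carried which, and the replicates are not described as separate cultures. The p-values therefore measure only how far these samples spread, and that spread may be technical.

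CXXC5 is a nuclear and cytoplasmic protein with a CXXC-type zinc finger that binds CpG-rich DNA. It is known to hold back canonical Wnt signalling through Dishevelled, to be induced by BMP, retinoic acid and Wnt ligands, and to act in stress responses of blood and other cells. In myeloid leukemia cells its level has been linked to differentiation and to outcome. The annotation paired 0 probe sets with CXXC5, so its own level was not analysed here and the labels were not checked against it. The labelled cell type was checked against defining markers: the embryonic globin gene HBZ lay at the 97.9th percentile of mean level over all probe sets, the transferrin receptor gene TFRC at the 99.1th, the erythroid factor gene GATA1 at the 89.4th and MYB at the 95.7th.

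All levels are log2 expression values, and each gene is given by its brightest probe set. A gene was called where limma's moderated test, adjusted by the Benjamini-Hochberg method over 22215 probe sets, gave an adjusted p under 0.05. Few genes were called between knockdown and empty vector, and most called differences were small. Of 11963 genes, 416 were called (3.48%), 281 higher in knockdown (2.35%) and 135 lower (1.13%). The median size of a called difference was 0.409, 66 called genes differed at least 1.5-fold, and 9 at least 2-fold, of which 1 was higher and 8 were lower. The median over all genes was 0.01. An unadjusted p under 0.05 in the limma test was found for 2608 of the 11963 genes. Of all probe sets with 1 symbol, 622 were called (3.26%), 394 higher (2.07%) and 228 lower (1.2%). Between the 3 arrays of each group, 3585 genes (30%) did not overlap, so a lack of overlap alone is a weak sign here. The 15 largest called differences each way were taken only from genes without overlap. For those genes the lack of overlap was set by the selection and adds nothing. Called genes differed in level: 41.3% of the higher genes and 9.63% of the lower genes lay at or above the 75th percentile of mean level, against 31.3% of all genes. Scrambled shRNA against the same empty vector arrays gave 3523 called genes (29.4%), 15.1% higher and 14.3% lower, and knockdown against scrambled shRNA gave 1413 (11.8%), 7.39% higher and 4.42% lower. These differences share arrays with the one described here and are given as values side by side.

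The counts rest on few arrays. Without empty vector replicate 2 the 622 probe sets became 79, without empty vector replicate 3 they became 166, and without knockdown replicates 1, 2 and 3 they became 407, 148 and 151. Leaving out scrambled shRNA replicate 3, which enters only the estimate of spread, gave 968. That array had a GAPDH 3' to 5' difference, a sign of RNA or labelling quality, of 0.870. The same difference was 0.257 to 0.309 in empty vector and 0.296 to 0.335 in knockdown arrays, so these groups overlapped, as they did for ACTB. Of the 85 called genes that were selected for naming, 34 kept their call without each of the 6 arrays in turn. With the 6 arrays alone in the fit, 48 of the 85 passed, and CXCL8 and HSD17B7, which are among the 34, did not. For the others the arrays that decide the call are named with the value. Of the 103 named genes, 49 were called in knockdown minus scrambled shRNA, and 42 of these remained without scrambled shRNA replicate 3.

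**Figure D1:**
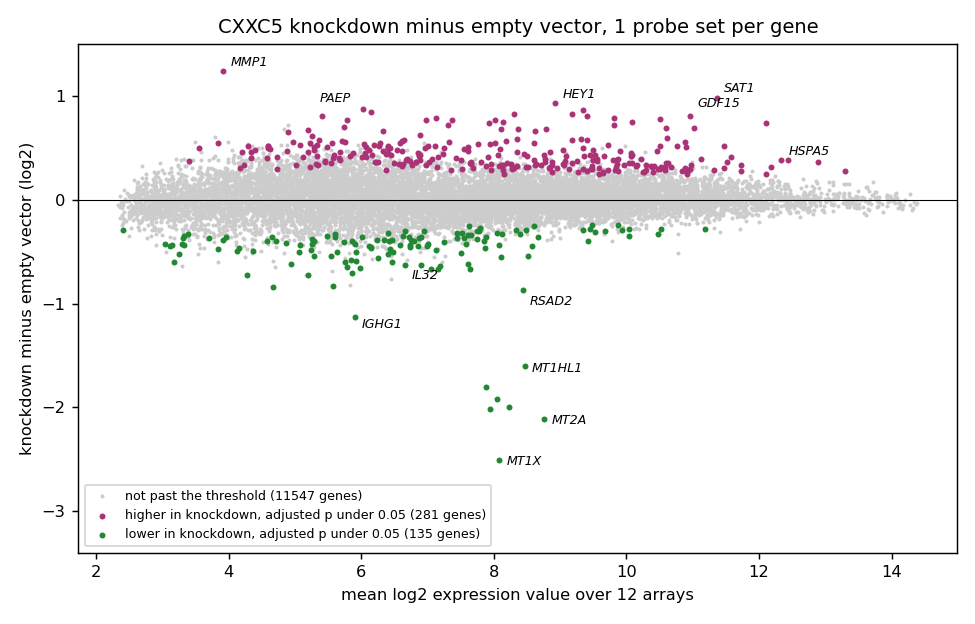
Difference between knockdown and empty vector (log2, vertical) against the mean log2 expression value over 12 arrays (horizontal), 1 point per gene. The 281 genes called higher reach 1.24 at MMP1, and the 7 metallothionein genes stand apart from the rest of the 135 genes called lower, down to -2.50 at MT1X.

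Metallothionein genes had the largest negative differences. They encode small proteins rich in cysteine that hold zinc and copper and are switched on by the zinc-sensing factor MTF1 through metal response elements (MREs) in their promoters. The RefSeq promoters (GRCh38.p14, 250 bases before to 50 after the start, plus strand) of the 3 of these genes held in the promoter table are shown because each carries a row of such elements, at chr16:56682220-56682519 for MT1X, chr16:56608334-56608633 for MT2A and chr16:56669564-56669863 for MT1H. Capitals mark matches to TGCACNC or TGCGCNC on either strand, the core of the metal response element.
MT1X: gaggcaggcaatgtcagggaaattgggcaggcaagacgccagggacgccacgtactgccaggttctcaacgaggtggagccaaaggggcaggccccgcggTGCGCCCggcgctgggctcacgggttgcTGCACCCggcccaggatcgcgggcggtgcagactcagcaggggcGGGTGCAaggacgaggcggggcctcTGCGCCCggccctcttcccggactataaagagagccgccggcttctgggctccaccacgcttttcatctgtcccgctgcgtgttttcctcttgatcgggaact
MT2A: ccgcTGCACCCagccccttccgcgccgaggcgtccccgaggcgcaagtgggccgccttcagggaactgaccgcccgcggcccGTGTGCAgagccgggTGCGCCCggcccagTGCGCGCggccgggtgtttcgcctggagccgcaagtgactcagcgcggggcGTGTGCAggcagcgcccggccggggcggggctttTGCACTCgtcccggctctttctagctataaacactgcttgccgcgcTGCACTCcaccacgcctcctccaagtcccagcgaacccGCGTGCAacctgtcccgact
MT1H: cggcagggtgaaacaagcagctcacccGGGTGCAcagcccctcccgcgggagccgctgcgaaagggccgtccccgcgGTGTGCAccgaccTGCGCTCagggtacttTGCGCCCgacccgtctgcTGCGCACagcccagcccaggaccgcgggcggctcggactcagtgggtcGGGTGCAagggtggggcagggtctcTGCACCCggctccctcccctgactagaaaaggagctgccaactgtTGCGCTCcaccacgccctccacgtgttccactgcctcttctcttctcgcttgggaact
The promoters of MT1X, MT2A and MT1H held 4, 8 and 8 matches. At least 1 match was found in 36.5% of 9563 promoters of the same length from measured genes, so a single match is common and describes letters, not a site in use.

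MT1X read 10.12, 10.95 and 10.57 in the 3 empty vector arrays and 8.05, 8.13 and 7.94 in the knockdown arrays. Every knockdown array was below every empty vector array, and the difference of -2.50 (SE 0.157, adjusted p = 2.14e-05) is 5.67-fold. MT2A, the most widely expressed member, read 10.07, 11.08 and 10.73 in empty vector and 8.40, 8.71 and 8.45 in knockdown arrays. These groups did not overlap either, and MT2A was lower by 2.11 (SE 0.193, adjusted p = 0.000504). MT1H differed by -2.02, MT1G by -1.99, MT1E by -1.92, MT1F by -1.80 and MT1HL1 by -1.60, with adjusted p-values of at most 0.00248. The fold differences of the 7 genes ran from 3.04 to 5.67, and empty vector replicate 1 had the lowest value of the 3 controls for all 7. All 7 probe sets are of a kind that can match several transcripts of the family, so the split between members is uncertain. A further MT1G probe set that is not of this kind and lay at the 16.8th percentile stood at 0.02. All 7 calls remained without each of the 6 arrays in turn.

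The scrambled shRNA and EGFP-CXXC5 arrays were low as well, and empty vector was the 1 high group of the 4. The EGFP-CXXC5 arrays, nucleofected like empty vector, averaged 6.52 for MT1X, 7.72 for MT2A and 6.99 for MT1H, each below the knockdown mean. For scrambled shRNA the median difference from empty vector over the 7 genes was -2.21, against -1.99 for knockdown, and knockdown minus scrambled was 0.35 at the median. For MT1X knockdown lay above scrambled shRNA by 0.80 (adjusted p = 0.00719). For the other 6 genes that difference was 0.17 to 0.67 and did not pass (adjusted p = 0.0659 to 0.715). Of the other zinc genes, the importer gene SLC39A6 was lower in knockdown by 0.33 (adjusted p = 0.0278). SLC30A1, the zinc exporter that MTF1 also controls, differed from empty vector by -0.16 (adjusted p = 0.325) and from scrambled shRNA by 1.18. MTF1 itself stood at -0.29 (adjusted p = 0.217), MT1M at -0.10 and MT3 at 0.00. Of 21 measured zinc response genes, 0 were called higher and 8 lower, against 2.35% and 1.13% of all genes. Their median was -0.10, against 0.01 over all genes. Without empty vector replicate 2 the count was 7, since SLC39A6 no longer passed.

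**Figure D2:**
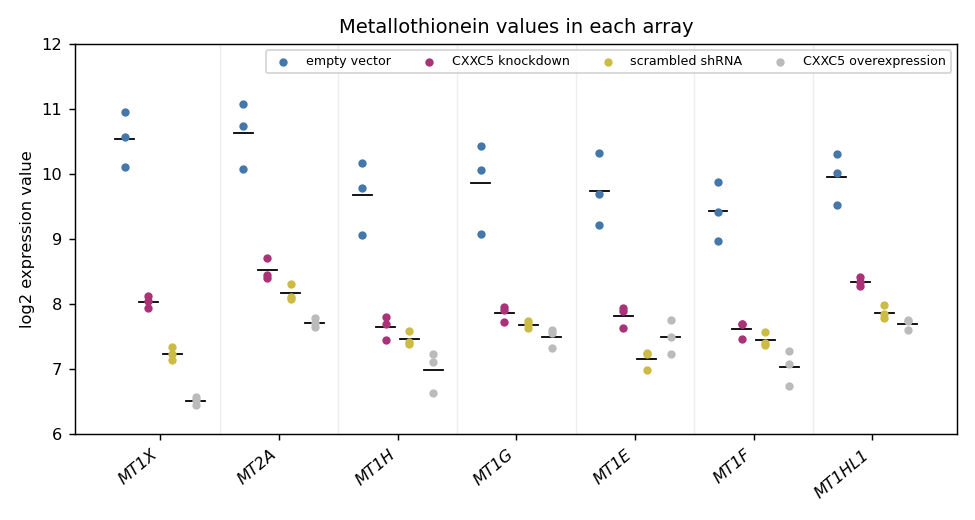
Log2 expression values of the metallothionein genes in each array (vertical), by gene and group. Points are arrays and short lines are group means; for the 7 called genes the lowest empty vector array lies at 8.98 and the highest knockdown array at 8.71, and all scrambled shRNA arrays also lie below the empty vector arrays.

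MMP1 and SAT1 had the largest differences among genes higher in knockdown. MMP1, the interstitial collagenase, read 3.59, 3.35 and 3.55 in empty vector and 4.76, 4.62 and 4.83 in knockdown arrays. The groups did not overlap, and MMP1 was higher by 1.24 (SE 0.148, adjusted p = 0.002), though its probe set was dim, at the 12.7th percentile of mean level. SAT1, the acetyltransferase that starts polyamine breakdown, was bright at the 95.0th percentile. It read 11.04, 10.74 and 10.80 in empty vector and 11.87, 11.82 and 11.84 in knockdown arrays. All 3 knockdown arrays were above all controls, by 0.98 (SE 0.104, adjusted p = 0.00121) in the mean, and the other 2 SAT1 probe sets stood at 0.88 and 0.92. Knockdown minus scrambled shRNA was 0.44 for MMP1 (adjusted p = 0.0834) and 0.24 for SAT1 (adjusted p = 0.18). Both calls held without each of the 6 arrays.

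Several of the largest higher genes were higher still with the scrambled shRNA. SERPINB9, an inhibitor of granzyme B, read 8.85, 8.49 and 8.54 in empty vector, 9.65, 9.27 and 9.55 in knockdown and 10.003, 9.99 and 10.03 in scrambled shRNA arrays. Knockdown lay between the controls without overlap, 0.86 above empty vector (adjusted p = 0.0026) and 0.52 below scrambled shRNA (adjusted p = 0.0105). GSDME, a pore-forming gasdermin, DLK1, a membrane ligand related to Notch ligands, and GMFG, an actin regulator of blood cells, took the same order. Their differences from empty vector were 0.82, 0.80 and 0.82 for knockdown and 1.41, 1.42 and 1.12 for scrambled shRNA, and knockdown minus scrambled passed for all 3 (adjusted p = 0.00774, 0.00111 and 0.0328). Without scrambled shRNA replicate 3, GMFG missed the threshold there (-0.24, adjusted p = 0.0968). CFB, complement factor B, was higher by 0.85 in knockdown and 1.00 in scrambled shRNA arrays, while its other, dim probe set stood at 0.00. These 5 calls against empty vector remained without each of the 6 arrays. A further SERPINB9 probe set stood at 0.23 and did not pass (adjusted p = 0.244). GDF15, a stress-induced cytokine, stood at 0.81 (SE 0.152, adjusted p = 0.021) in knockdown and 2.09 in scrambled shRNA arrays, with a further probe set at 0.02. In EGFP-CXXC5 arrays, nucleofected like empty vector, GMFG averaged 9.44 and GDF15 10.94, above the knockdown means of 9.28 and 10.81. SERPINB9, GSDME and CFB averaged 9.255, 8.18 and 5.88 there, above the empty vector means of 8.63, 7.61 and 5.63. DLK1 averaged 8.87 there and 8.84 in empty vector arrays. TFPI2, a serine protease inhibitor, was higher in knockdown by 0.80, the lipid flippase gene ATP8B1 by 0.79 and SAMD4A, a regulator of mRNA translation, by 0.77. GDF15 no longer passed without any 1 of 4 arrays (empty vector replicates 2, 3 and knockdown replicates 2, 3), at 0.73 to 0.81. TFPI2 and SAMD4A no longer passed without empty vector replicate 2, at 0.74 for TFPI2 and 0.74 for SAMD4A. Other SAMD4A probe sets stood at 0.05 to 0.48, and that of TFPI2 at 0.36. ATP8B1 no longer passed without any 1 of 5 arrays (empty vector replicates 2, 3 and knockdown replicates 1, 2, 3), at 0.63 to 0.90.

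Apart from the metallothioneins and IGHG1, the genes lower in knockdown differed by less than 2-fold. RSAD2, the interferon-induced antiviral enzyme viperin, read 9.14, 9.16 and 8.99 in empty vector and 8.29, 8.13 and 8.25 in knockdown arrays. The groups did not overlap, the difference was -0.87 (SE 0.0946, adjusted p = 0.00122), and scrambled shRNA was lower still at -1.58. TXK, a Tec family kinase, differed by -0.83 in knockdown and by -0.77 in scrambled shRNA arrays. Both calls held without each of the 6 arrays. IGHG1, an immunoglobulin heavy chain, stood at -1.13 by its brightest probe set and at -0.07 to 0.06 by the other 3, so the gene's probe sets disagree. PTH2R, a peptide hormone receptor, stood at -0.84, the synapse gene SYNDIG1 at -0.73, the sodium channel gene SCN2A at -0.72, the TLR4 co-receptor gene LY96 at -0.70 and the deubiquitinase gene USP13 at -0.67. Against scrambled shRNA, LY96 stood at 0.65 (adjusted p = 0.026), and the other 4 did not pass. PTH2R, SYNDIG1 and SCN2A lay at the 21.6th, 16.99th and 28.9th percentile of mean level. PTH2R no longer passed without any 1 of 2 arrays (empty vector replicate 2 and knockdown replicate 2), at -0.72 to -0.68. SYNDIG1 and SCN2A no longer passed without empty vector replicate 2, at -0.63 for SYNDIG1 and -0.71 for SCN2A. LY96 no longer passed without any 1 of the 6 arrays, at -0.77 to -0.62. USP13 no longer passed without any 1 of 5 arrays (empty vector replicates 1, 2, 3 and knockdown replicates 2, 3), at -0.73 to -0.56.

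Sterol synthesis genes were the list with the most called members. Cells make cholesterol through a chain of enzymes whose genes are switched on together by the SREBP factors when sterols run low, and INSIG1 is both a target and a brake of that system. Of 26 measured sterol and fatty acid synthesis genes, 10 were called higher in knockdown and 0 lower, with a median difference of 0.25 against 0.01 over all genes. HMGCS1, which makes the HMG-CoA that the pathway starts from, read 10.73, 10.47 and 10.54 in empty vector and 11.15, 11.12 and 11.15 in knockdown arrays. Knockdown was above empty vector in every array, by 0.56 (SE 0.0748, adjusted p = 0.00362), and the other HMGCS1 probe set stood at 0.78. INSIG1 read 10.34, 10.05 and 10.19 in empty vector and 10.66, 10.71 and 10.75 in knockdown arrays. These did not overlap, and the difference was 0.51 (SE 0.0776, adjusted p = 0.00747). Other INSIG1 probe sets stood at 0.39 and 0.35 and did not pass (adjusted p = 0.114 and 0.32). As the mean of its probe sets INSIG1 did not pass. The later enzyme genes HSD17B7, MSMO1, DHCR7 and FDPS stood at 0.52, 0.47, 0.42 and 0.41 (adjusted p of at most 0.00829). MSMO1 and FDPS no longer passed without empty vector replicate 2, at 0.44 for MSMO1 and 0.39 for FDPS. HSD17B7 did not pass with the 6 arrays alone. Without empty vector replicate 2 the list had 4 called members, at most 8 without any other array, and 6 with the 6 arrays alone.

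Scrambled shRNA arrays were also above empty vector for many of these genes. Against empty vector, 14 of the 26 genes were higher with scrambled shRNA and 1 was lower, at a median of 0.30. Over all genes 15.1% were higher with scrambled shRNA, and 2.35% with knockdown. Knockdown minus scrambled shRNA had 1 member higher and 5 lower, at a median of -0.02, against 7.39% and 4.42% of all genes. For HMGCS1, HSD17B7 and FDPS knockdown and scrambled shRNA did not differ past the threshold (-0.24, -0.02 and -0.10; adjusted p = 0.0615, 0.905 and 0.378). For INSIG1, MSMO1 and DHCR7 knockdown was below scrambled shRNA, by 0.73, 0.46 and 0.23 (adjusted p = 0.00017, 0.00223 and 0.0357). Without scrambled shRNA replicate 3, DHCR7 missed the threshold (-0.20, adjusted p = 0.0835), and the counts became 0 higher and 4 lower.

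**Figure D3:**
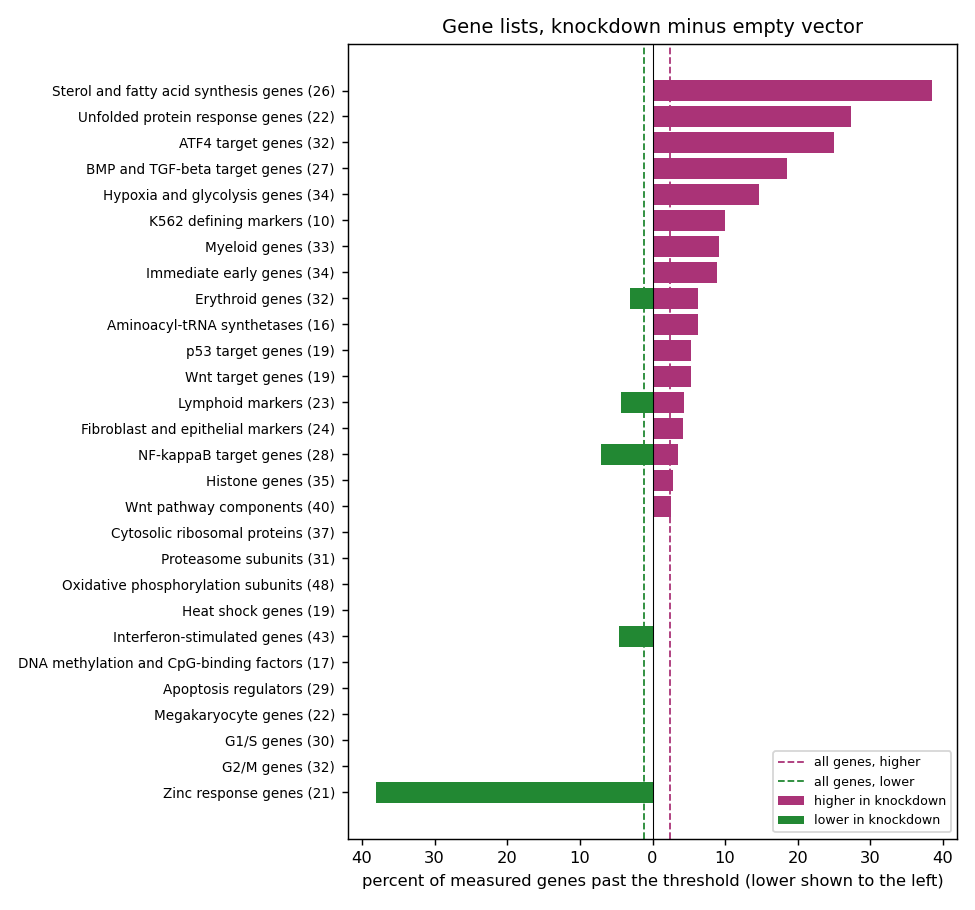
Percent of the measured members of each gene list that were called (horizontal), higher in knockdown to the right and lower to the left, with the number measured in brackets and dashed lines at the share over all genes (2.35% higher, 1.13% lower). Sterol synthesis (10 of 26), unfolded protein response (6 of 22) and ATF4 target genes (8 of 32) have the longest bars to the right, and zinc response genes (8 of 21) the longest to the left. The lists were chosen with earlier results of these data known.

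Genes of the unfolded protein response had called members on the higher side against both controls. Proteins that misfold in the endoplasmic reticulum set off this response, in which ATF6 and XBP1 switch on chaperones such as BiP and parts of the degradation machinery through the ER stress response element (ERSE). Of 22 measured genes, 6 were called higher against empty vector and 0 lower, at a median of 0.20. Against scrambled shRNA 10 were higher and 0 lower, at a median of 0.28, and in scrambled shRNA against empty vector 1 was higher and 8 lower, at a median of -0.11. Leaving out scrambled shRNA replicate 3 made these 9 and 0, and 1 and 3. With all arrays, 2.35% of all genes were higher and 1.13% lower against empty vector, and 7.39% and 4.42% against scrambled shRNA. In scrambled shRNA against empty vector these shares were 15.1% and 14.3%. HSPA5, which encodes BiP, read 12.48, 12.40 and 12.38 in empty vector, 12.82, 12.81 and 12.78 in knockdown and 11.98, 12.01 and 11.88 in scrambled shRNA arrays. The knockdown arrays were above both controls without overlap, by 0.38 (SE 0.059, adjusted p = 0.00858) against empty vector and 0.85 (adjusted p = 6.46e-06) against scrambled shRNA. HERPUD1, a membrane protein of ER-associated degradation, read 9.96, 9.93 and 9.996 in empty vector, 10.48, 10.38 and 10.38 in knockdown and 9.93, 9.88 and 9.97 in scrambled shRNA arrays. It too was highest in all 3 knockdown arrays, by 0.45 (SE 0.0573, adjusted p = 0.00263) against empty vector and 0.49 (adjusted p = 0.000316) against scrambled shRNA.

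SEL1L, the adaptor of the HRD1 ubiquitin ligase, was higher by 0.55 in its brightest probe set, while its other 3 stood at -0.24 to 0.03. The ER-resident factor MANF was higher by 0.36, the mannosidase-like EDEM1 by 0.29 and the chaperone calreticulin, CALR, by 0.28. Against scrambled shRNA SEL1L, MANF and CALR were higher as well (0.39, 0.44 and 0.28; adjusted p = 0.0176, 0.00287 and 0.0246), and EDEM1 was at -0.05 (adjusted p = 0.652). Without scrambled shRNA replicate 3, SEL1L stood at 0.33 there (adjusted p = 0.0574). HSPA5 and SEL1L no longer passed without empty vector replicate 2, at 0.37 for HSPA5 and 0.55 for SEL1L. MANF no longer passed without any 1 of 4 arrays (empty vector replicates 2, 3 and knockdown replicates 2, 3), at 0.34 to 0.36. EDEM1 no longer passed without any 1 of 5 arrays (empty vector replicates 2, 3 and knockdown replicates 1, 2, 3), at 0.26 to 0.30. CALR no longer passed without any 1 of the 6 arrays, at 0.26 to 0.30. The number of called members was 1 without empty vector replicate 2, HERPUD1, and 5 at most without any other array. Under quantile normalization 4 members were called higher and 1 lower, and MANF and CALR no longer passed. Without the 40% lowest probe sets 7 were called higher and 1 lower. As the mean of their probe sets, SEL1L and CALR did not pass.

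The promoters of HSPA5 and CALR are shown because they were the 2 of the 6 called genes in which the whole ER stress element was found. They lie at chr9:125241294-125241593 (minus strand) and chr19:12938359-12938658 (plus strand) and come from RefSeq, GRCh38.p14. Capitals mark the match to the element, searched on both strands. Its CCAAT part overlaps the CCAAT box, which was searched separately.
HSPA5: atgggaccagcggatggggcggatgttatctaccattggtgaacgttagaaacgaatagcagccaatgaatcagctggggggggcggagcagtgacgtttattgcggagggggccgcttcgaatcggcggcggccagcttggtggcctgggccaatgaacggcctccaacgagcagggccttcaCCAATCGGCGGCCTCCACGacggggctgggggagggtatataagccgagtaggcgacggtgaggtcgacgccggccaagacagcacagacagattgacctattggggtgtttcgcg
CALR: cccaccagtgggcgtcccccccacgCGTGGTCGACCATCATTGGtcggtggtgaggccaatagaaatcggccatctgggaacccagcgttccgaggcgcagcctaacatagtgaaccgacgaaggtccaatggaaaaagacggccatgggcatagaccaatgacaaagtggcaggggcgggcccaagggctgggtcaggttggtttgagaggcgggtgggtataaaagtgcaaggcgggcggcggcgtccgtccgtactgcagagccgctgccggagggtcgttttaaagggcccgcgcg
The match begins 66 bases before the start in HSPA5, at offset -66, and at offset -225 in CALR, where it reads on the opposite strand. The element was found in 12 of 9563 promoters (0.125%), and in 6 of the 20 unfolded protein response genes with a promoter in the table. The shorter CCAAT box (CCAAT, either strand) was found in 37.3% of all promoters, in 18 of those 20 and in all 6 of the called ones. It was found in 38.8% of 232 promoters of genes higher in knockdown and in 32.1% of 109 of genes lower.

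ATF4 target genes had called members on the higher side alone. ATF4 is the factor of the integrated stress response, made when translation slows, and switches on amino acid transport and synthesis along with stress factors. Of 32 measured targets, 8 were called higher and 0 lower in knockdown, against 2.35% and 1.13% of all genes. The median over the targets was 0.18. DDIT3, the stress factor CHOP, read 9.42, 9.12 and 9.34 in empty vector and 10.05, 10.09 and 10.08 in knockdown arrays. The groups did not overlap, and DDIT3 was higher by 0.78 (SE 0.103, adjusted p = 0.00345). ATF3, a stress-induced partner of ATF4 and also an immediate early gene, read 8.15, 7.79 and 7.92 in empty vector, 8.79, 8.61 and 8.69 in knockdown and 8.22, 8.38 and 8.29 in scrambled shRNA arrays. ATF3 was highest in all knockdown arrays, by 0.74 (SE 0.103, adjusted p = 0.00481) against empty vector and 0.40 (adjusted p = 0.0307) against scrambled shRNA, where it missed the threshold without scrambled shRNA replicate 3 (0.40, adjusted p = 0.0745). DDIT4, an inhibitor of mTORC1, was higher by 0.74 (adjusted p = 0.00331), the cystine transporter gene SLC7A11 by 0.68 (adjusted p = 0.00483) and CTH, which makes cysteine, by 0.57 (adjusted p = 0.0102). DDIT3, ATF3, DDIT4 and SLC7A11 kept their calls without each of the 6 arrays. Other SLC7A11 probe sets stood at 0.20 and 0.47, and that of CTH at 0.43. CTH no longer passed without empty vector replicate 2, at 0.54. Without 1 array the list had 5 to 8 called members.

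Of 16 aminoacyl-tRNA synthetase genes, several of which are ATF4 targets, AARS1 was called, higher by 0.31 (adjusted p = 0.0352), and 0 were lower. That is a single gene, and 2.35% of all genes were called higher. AARS1 no longer passed without any 1 of 4 arrays (empty vector replicates 2, 3 and knockdown replicates 2, 3), at 0.28 to 0.31. Scrambled shRNA arrays had 12 of the 32 ATF4 targets higher than empty vector and 2 lower, at a median of 0.21. The shares over all genes were 15.1% and 14.3%. Knockdown minus scrambled had 2 higher and 1 lower, at -0.03, against 7.39% and 4.42% of all genes. DDIT3 and DDIT4 differed from empty vector by 1.10 and 1.06 with scrambled shRNA. Their knockdown minus scrambled differences of -0.31 and -0.32 did not pass (adjusted p = 0.0803 and 0.0586).

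**Figure D4:**
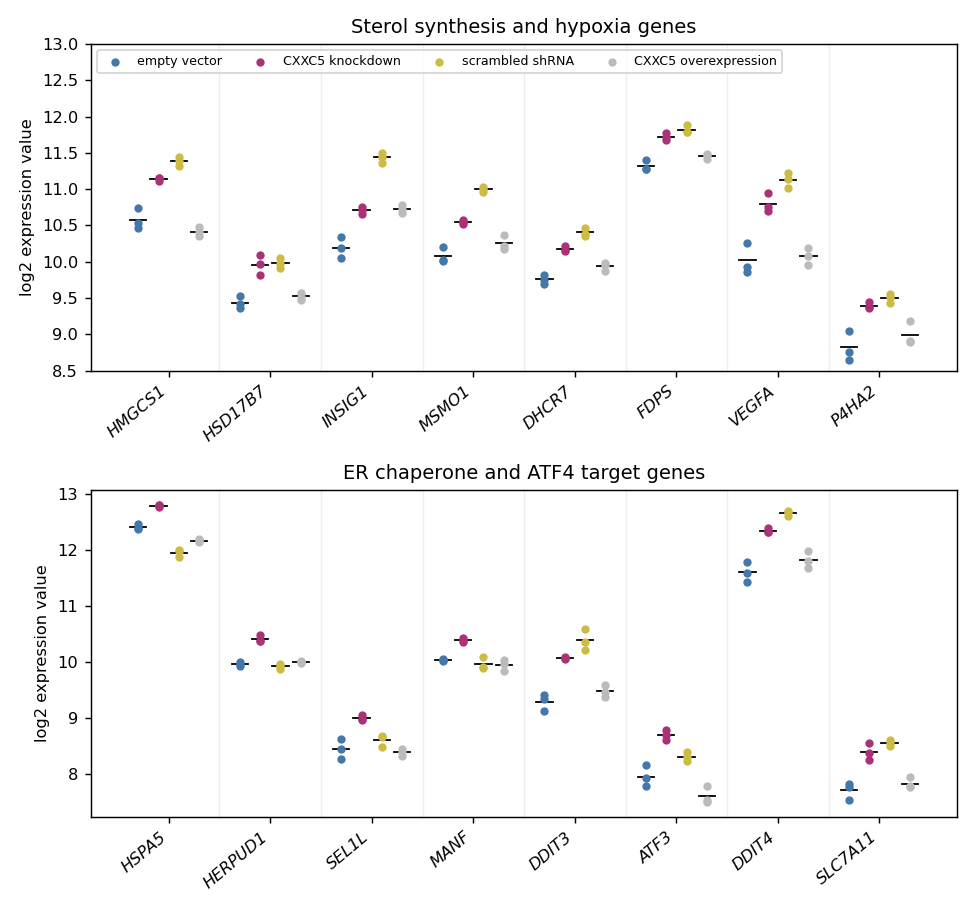
Log2 expression values per array (vertical) of sterol synthesis and hypoxia genes (top) and of ER chaperone and ATF4 target genes (bottom); points are arrays, colours are groups and short lines are group means. HSPA5, HERPUD1, SEL1L, MANF and ATF3 are highest in the knockdown arrays, while HMGCS1, INSIG1, DDIT3 and VEGFA are higher in knockdown than in empty vector and have their highest mean in scrambled shRNA arrays.

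Of 34 hypoxia and glycolysis genes, which the HIF factors switch on at low oxygen, 5 were higher in knockdown and 0 lower. Their median was 0.13, and 2.35% of all genes were higher and 1.13% lower. VEGFA, the vessel growth factor, read 10.27, 9.86 and 9.93 in empty vector and 10.95, 10.70 and 10.75 in knockdown arrays. The groups did not overlap, the difference was 0.78 (SE 0.112, adjusted p = 0.00553), and the other 3 probe sets stood at 0.44 to 0.59. ADM, the vasodilator adrenomedullin, was higher by 0.70, the glycolytic enzyme gene ALDOC by 0.68 and P4HA2, a collagen prolyl hydroxylase, by 0.58, with DDIT4 as the other called member. ADM no longer passed without any 1 of 3 arrays (empty vector replicate 2 and knockdown replicates 2, 3), at 0.67 to 0.68. ALDOC no longer passed without any 1 of 5 arrays (empty vector replicates 2, 3 and knockdown replicates 1, 2, 3), at 0.58 to 0.69. P4HA2 no longer passed without any 1 of 4 arrays (empty vector replicates 2, 3 and knockdown replicates 2, 3), at 0.49 to 0.59. The list had 2 called members without empty vector replicate 2 and 5 at most without any other array. With scrambled shRNA 16 of the 34 were higher than empty vector and 1 lower (median 0.22), against 15.1% and 14.3% of all genes. Knockdown minus scrambled had 1 higher and 8 lower (median -0.10), against 7.39% and 4.42% of all genes.

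Among BMP and TGF-beta targets, 5 of 27 were called higher in knockdown and 0 lower, against 2.35% and 1.13% of all genes. The median over the targets was 0.08. HEY1, a transcriptional repressor induced by Notch and BMP signals, read 8.70, 8.26 and 8.36 in empty vector and 9.60, 9.19 and 9.33 in knockdown arrays. The groups did not overlap, HEY1 was higher by 0.93 (SE 0.131, adjusted p = 0.0051), its other probe set stood at 0.92, and scrambled shRNA was higher by 0.81. The call for HEY1 remained without each array. The inhibitory SMAD gene SMAD7 was higher by 0.30 against empty vector and by 0.74 (adjusted p = 8.91e-05) against scrambled shRNA. SMAD6, the other inhibitory SMAD, was higher by 0.43 against empty vector and at -0.18 (adjusted p = 0.171) against scrambled shRNA. HES1, a repressor of the same family as HEY1, was higher by 0.44, and CDKN1A, the cell cycle inhibitor p21, by 0.33. Against scrambled shRNA, HES1 stood at 0.44 (adjusted p = 0.019) and CDKN1A at -0.84 (adjusted p = 7.25e-05). SMAD7 no longer passed without any 1 of 5 arrays (empty vector replicates 2, 3 and knockdown replicates 1, 2, 3), at 0.25 to 0.32. SMAD6 no longer passed without any 1 of 3 arrays (empty vector replicates 2, 3 and knockdown replicate 3), at 0.41 to 0.43. HES1 and CDKN1A no longer passed without any 1 of the 6 arrays, at 0.40 to 0.47 for HES1 and 0.29 to 0.38 for CDKN1A. As the mean of their probe sets SMAD6 and HES1 did not pass. Their other probe sets stood at 0.17 to 0.21 for SMAD6 and at -0.13 and 0.30 for HES1. The list had 1 called member without empty vector replicate 2 and 3 at most without any other array.

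Immediate early genes and NF-kappaB targets had medians near the empty vector level in knockdown and apart from it in scrambled shRNA arrays. Single members in knockdown ran from -0.43 to 0.745 and from -0.63 to 0.72. Over all genes 3.48% were called in knockdown, and 15.1% were higher and 14.3% lower in scrambled shRNA. Of 34 immediate early genes, 3 were called higher and 0 lower in knockdown (median 0.08), against 22 higher and 1 lower in scrambled shRNA (median 0.41). The 3 were ATF3 and the ERK feedback inhibitors SPRY2 and SPRY4, at 0.35 and 0.27. SPRY2 no longer passed without any 1 of 4 arrays (empty vector replicates 2, 3 and knockdown replicates 1, 3), at 0.30 to 0.34. SPRY4 no longer passed without any 1 of the 6 arrays, at 0.25 to 0.30. Of 28 NF-kappaB targets, 1 was called higher and 2 lower in knockdown (median -0.06), against 20 higher and 3 lower in scrambled shRNA (median 0.79). Knockdown minus scrambled shRNA had 1 higher and 20 lower in each list, at medians of -0.42 and -0.87. Over all genes 7.39% were higher and 4.42% lower there.

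CXCL8, the neutrophil chemokine interleukin 8, read 9.04, 8.71 and 8.79 in empty vector, 9.64, 9.36 and 9.70 in knockdown and 11.65, 11.84 and 11.87 in scrambled shRNA arrays. Knockdown lay between the controls without overlap, 0.72 above empty vector (adjusted p = 0.00776), although a further probe set stood at 0.03. CXCL10, an interferon-inducible chemokine, read 6.29, 6.36 and 6.24 in empty vector, 5.63, 5.63 and 5.76 in knockdown and 8.66, 8.59 and 8.44 in scrambled shRNA arrays. It was lowest in all 3 knockdown arrays, by 0.63 against empty vector (SE 0.0741, adjusted p = 0.00199) and 2.89 against scrambled shRNA. Both calls held without each of the 6 arrays, but CXCL8 did not pass with the 6 arrays alone or as the mean of its probe sets. The chemokine gene CCL5 was lower by 0.50 (adjusted p = 0.0465). CCL5 no longer passed without any 1 of the 6 arrays, at -0.57 to -0.41. Of 43 interferon-stimulated genes 0 were higher and 2 lower, against 2.35% and 1.13% of all genes. The 2 were RSAD2 and IFI6, the latter at -0.39, and the median over the list was -0.07. IFI6 no longer passed without any 1 of 5 arrays (empty vector replicates 1, 2 and knockdown replicates 1, 2, 3), at -0.41 to -0.33.

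All groups had Wnt3a in the medium, and over all genes 3.48% were called. Of 19 Wnt target genes 1 was higher and 0 lower, at a median of -0.02, and of 40 pathway components 1 was higher and 0 lower, also at -0.02. The target was PPARD, a nuclear receptor, at 0.49 (SE 0.103, adjusted p = 0.0296), with other probe sets at 0.01 and 0.33. The component was the Frizzled receptor gene FZD4, which read 6.79, 6.89 and 6.96 in empty vector and 7.28, 7.21 and 7.23 in knockdown arrays. These did not overlap, at 0.36 (SE 0.0673, adjusted p = 0.0195). PPARD no longer passed without any 1 of 5 arrays (empty vector replicates 2, 3 and knockdown replicates 1, 2, 3), at 0.39 to 0.55. FZD4 no longer passed without any 1 of 3 arrays (empty vector replicate 2 and knockdown replicates 2, 3), at 0.37 to 0.38. CXXC4, the near relative of CXXC5 that also binds Dishevelled, stood at 0.27 (adjusted p = 0.126). Of 17 measured DNA methylation and CpG-binding factors limma called 0, with 2 at an unadjusted p under 0.05, against 2608 of all 11963 genes.

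Blood lineage genes had some called members, 3 of 32 erythroid and 3 of 33 myeloid genes, against 3.48% of all genes. In bulk samples fewer cells of a type and less RNA per cell cannot be told apart. Of 32 erythroid genes, 2 were higher and 1 lower in knockdown, at a median of 0.05. HBZ, the embryonic alpha-like globin gene, read 12.28, 12.17 and 12.22 in empty vector, 12.60, 12.60 and 12.60 in knockdown and 12.98, 13.02 and 13.14 in scrambled shRNA arrays. Knockdown lay between the controls, 0.38 above empty vector (adjusted p = 0.0112) and 0.44 below scrambled shRNA (adjusted p = 0.00109). ALAS2, the first enzyme of heme synthesis in red cells, read 8.81, 8.71 and 8.70 in empty vector, 8.51, 8.35 and 8.28 in knockdown and 8.78, 8.89 and 8.95 in scrambled shRNA arrays. It was lowest in knockdown, by 0.36 against empty vector (adjusted p = 0.0378) and 0.49 against scrambled shRNA (adjusted p = 0.00271). The heme enzyme gene CPOX was higher by 0.28 (adjusted p = 0.0488). HBZ no longer passed without empty vector replicate 2, at 0.35. ALAS2 no longer passed without any 1 of 5 arrays (empty vector replicates 1, 2, 3 and knockdown replicates 2, 3), at -0.38 to -0.31. CPOX no longer passed without any 1 of 5 arrays (empty vector replicates 2, 3 and knockdown replicates 1, 2, 3), at 0.23 to 0.30.

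Of 33 myeloid genes 3 were higher and 0 lower, at a median of -0.01: the granule protease gene PRTN3 by 0.54, from a dim probe set at the 12.0th percentile, the Fc receptor gene FCGR2A by 0.46 and the factor gene CEBPB by 0.32. PRTN3 no longer passed without empty vector replicate 2, at 0.47. FCGR2A and CEBPB no longer passed without any 1 of 5 arrays (empty vector replicates 2, 3 and knockdown replicates 1, 2, 3), at 0.39 to 0.50 for FCGR2A and 0.30 to 0.34 for CEBPB. Of 22 megakaryocyte genes limma called 0, with 5 at an unadjusted p under 0.05, against 2608 of all 11963 genes. Under median centring 1 was called higher and with array weights 3, and 8 of 18 alternatives called at least 1. The nearest were SRGN, a granule proteoglycan, at 0.31 (adjusted p = 0.0533) and PLEK, a platelet kinase substrate, at 0.33 (adjusted p = 0.09). By its other probe set SRGN passed, at 0.35 (adjusted p = 0.0279), and that of PLEK stood at -0.05. Markers of other cells were also examined. Of 23 lymphoid markers 8 lay below the 25th percentile. CD8A was higher by 0.55 and CD3G lower by 0.36, and the mean over the list was 5.43 to 5.49 in empty vector and 5.47 to 5.57 in knockdown arrays. Of 24 fibroblast and epithelial markers 6 lay below that percentile, the mean was 6.51 to 6.54 and 6.50 to 6.60, and FN1, fibronectin, was higher by 0.25. Against scrambled shRNA, FN1 stood at -0.65 (adjusted p = 4.24e-05). CD3G no longer passed without any 1 of 5 arrays (empty vector replicates 1, 2 and knockdown replicates 1, 2, 3), at -0.37 to -0.30. FN1 no longer passed without any 1 of the 6 arrays, at 0.22 to 0.27.

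Genes of growth and protein turnover had 0 or 1 called members, and several of these zeros depend on the processing. Counts at an unadjusted p under 0.05 stand beside 2608 of all 11963 genes. Of 30 G1/S genes limma called 0, with 8 at an unadjusted p under 0.05, and 2 of the 30 lay above 0, at a median of -0.08. The nearest, the ribonucleotide reductase gene RRM2, stood at -0.28 (adjusted p = 0.0504). The G1/S count was 3 lower under quantile normalization, 2 without the 40% lowest probe sets, 2 with 1 probe set per gene, 5 with array weights and 0 with the 6 arrays alone. RRM2 passed in each of the first 4. Of 32 G2/M genes 0 were called by limma, with 3 at an unadjusted p under 0.05 and a median of 0.01. The proliferation marker gene MKI67 stood at 0.18 (adjusted p = 0.166) by its brightest probe set. Another passed at 0.34 (adjusted p = 0.0302), and the rest stood at 0.00 and 0.06. Limma called 0 of 37 cytosolic ribosomal protein genes, 0 of 48 oxidative phosphorylation subunits and 0 of 31 proteasome subunits, with 2, 3 and 2 at an unadjusted p under 0.05. It called 0 of 19 heat shock genes and 0 of 29 apoptosis regulators, with 4 and 6 at an unadjusted p under 0.05. The apoptosis count was 2 higher under quantile normalization, 3 under median centring, and 4 without the 40% lowest probe sets or with 1 probe set per gene. Among these genes BAD stood at 0.28 (adjusted p = 0.053) with its other probe set at -0.28. Of 35 histone genes H2BC5 was called, higher by 0.30, and of 19 p53 targets CDKN1A, already described as higher by 0.33. These are single genes, and 2.35% of all genes were called higher. H2BC5 no longer passed without any 1 of 5 arrays (empty vector replicates 2, 3 and knockdown replicates 1, 2, 3), at 0.27 to 0.31. CDKN1A no longer passed without any 1 of the 6 arrays, at 0.29 to 0.38.

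Some genes set the knockdown arrays apart from both controls, with calls of the same sign against empty vector and against scrambled shRNA. PAEP, the secreted lipocalin glycodelin, read 5.96, 5.66 and 5.77 in empty vector, 6.52, 6.81 and 6.68 in knockdown and 5.65, 5.60 and 5.86 in scrambled shRNA arrays. Its knockdown values were above both controls without overlap, by 0.87 (SE 0.101, adjusted p = 0.00182) and by 0.97 (adjusted p = 0.000152), while the controls differed by -0.10. SEC24D, a coat protein of vesicles that leave the ER, read 7.82, 7.67 and 7.73 in empty vector, 8.15, 8.30 and 8.37 in knockdown and 7.47, 7.40 and 7.46 in scrambled shRNA arrays. The knockdown arrays were again highest, by 0.53 (SE 0.0701, adjusted p = 0.00343) and by 0.83 (adjusted p = 3.35e-05), and its other, dim probe sets stood at -0.12 and 0.21. IL32, a proinflammatory cytokine gene, read 6.90, 6.63 and 6.82 in empty vector, 6.21, 6.13 and 6.13 in knockdown and 6.77, 6.93 and 6.95 in scrambled shRNA arrays. IL32 was lowest in all 3 knockdown arrays, at -0.62 (SE 0.0944, adjusted p = 0.00747) and -0.73 (adjusted p = 0.000691). The calls for PAEP, SEC24D, IL32 and CXCL10 against empty vector remained without each of the 6 arrays. As the mean of its probe sets SEC24D did not pass.

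Against empty vector and then against scrambled shRNA, PIR, an iron-binding nuclear protein gene, stood at 0.74 and 1.05, and the serine protease gene PRSS23 at 0.66 and 0.62. The receptor gene IL21R stood at 0.55 and 0.60, the lipase inhibitor gene G0S2 at 0.51 and 1.04, the neuronal catenin gene CTNNA2 at 0.52 and 0.48, and IDH1, the cytosolic isocitrate dehydrogenase, at 0.51 and 0.47. IDH1 was the brightest of these, at the 92.6th percentile. CTNNA2 averaged 6.78 in the EGFP-CXXC5 arrays, above its knockdown mean of 6.43, so a higher CTNNA2 value was not particular to knockdown. On the lower side were GRIK4, a glutamate receptor subunit, ALB, albumin, SYNC, an intermediate filament protein, CLN8, an ER cargo receptor, and CHRNB4, a nicotinic receptor subunit. Their differences against empty vector were -0.39, -0.38, -0.43, -0.44 and -0.45, and GRIK4 and CHRNB4 were dim, at the 12.8th and 5.2th percentile. CLN8 had a further probe set at 0.11. Against scrambled shRNA, CHRNB4 missed the threshold without scrambled shRNA replicate 3 (-0.34, adjusted p = 0.0649). PIR and IL21R no longer passed without any 1 of 4 arrays (empty vector replicates 2, 3 and knockdown replicates 2, 3), at 0.70 to 0.77 for PIR and 0.51 to 0.56 for IL21R. PRSS23 no longer passed without empty vector replicate 2, at 0.63. G0S2 no longer passed without any 1 of 3 arrays (empty vector replicates 2, 3 and knockdown replicate 2), at 0.45 to 0.53. CTNNA2 no longer passed without any 1 of 5 arrays (empty vector replicates 2, 3 and knockdown replicates 1, 2, 3), at 0.44 to 0.57. IDH1 no longer passed without any 1 of 4 arrays (empty vector replicates 2, 3 and knockdown replicates 1, 3), at 0.43 to 0.53. GRIK4 and ALB no longer passed without any 1 of 5 arrays (empty vector replicates 1, 2, 3 and knockdown replicates 2, 3), at -0.45 to -0.33 for GRIK4 and -0.40 to -0.32 for ALB. SYNC and CLN8 no longer passed without any 1 of 4 arrays (empty vector replicates 2, 3 and knockdown replicates 2, 3), at -0.42 to -0.37 for SYNC and -0.47 to -0.34 for CLN8. CHRNB4 no longer passed without any 1 of 4 arrays (empty vector replicates 2, 3 and knockdown replicates 1, 2), at -0.47 to -0.37.

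**Figure D5:**
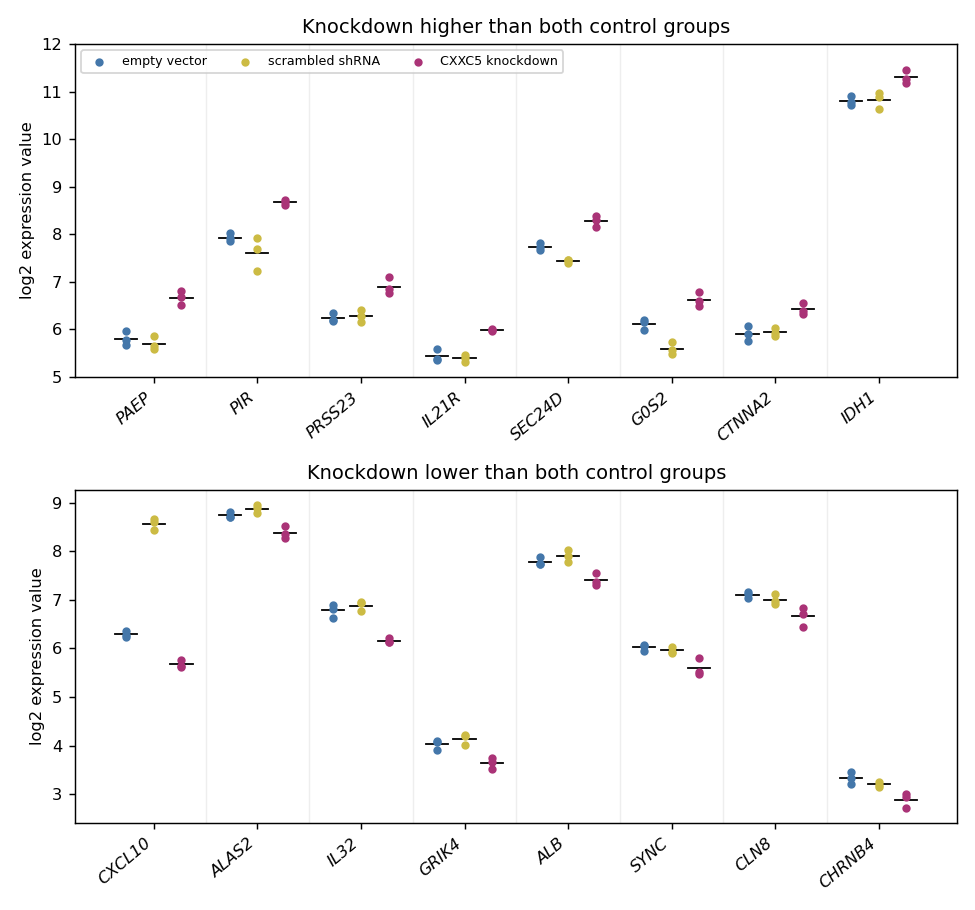
Log2 expression values per array (vertical) of genes called in knockdown with the same sign against both controls, higher (top) and lower (bottom); points are arrays, colours are groups and short lines are group means. PAEP and SEC24D lie highest and IL32 and CXCL10 lowest in the 3 knockdown arrays. The EGFP-CXXC5 arrays are not drawn.

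CXXC domains bind unmethylated CpG, so the CpG content of the promoters was described. The observed over expected CpG ratio of the 300-base windows had a median of 0.798 in 9563 measured genes, 0.789 in the 232 higher genes with a promoter in the table and 0.776 in the 109 lower ones. A ratio of at least 0.6 was found in 72%, 69% and 65.1% of these promoters. The AP-1 site (TGANTCA, either strand) was found in 5.43% of all, 8.19% of higher and 5.5% of lower promoters, and the TATA box (TATAAA, either strand) in 8.3%, 12.5% and 11%.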

How the data were processed

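Total RNA (500 ng) was made into biotin-labelled cRNA and hybridised to 12 Affymetrix 3' arrays, per the labels' protocols. The authors deposited 1 log2 value per probe set and array, from 2.07 to 14.4; the log2 scale was read from this range. The submitters' processing notes name Affymetrix Expression Console; version, summarisation and genome build: not given in the sources used here. Array medians were 6.64 to 6.70. The number of arrays limits the precision.

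After removing 62 control probe sets, 22215 were fitted with limma 3.58.1 (R 4.3.3), 1 coefficient per group over 12 arrays (8 residual degrees of freedom), eBayes and Benjamini-Hochberg adjustment, two-sided. Platform annotation gave 1 symbol to 19064 probe sets, several to 1043 and none to 2108; 19052 were looked up in RefSeq by gene identifier. Each gene took its probe set with the highest mean. Promoters (RefSeq, GRCh38.p14) matched 9563 of 11963 genes. Named genes were the 15 largest called non-overlapping differences each way, up to 6 called members per list (or the 2 nearest), and the 8 and 6 each way that were called with the same sign against scrambled shRNA or in scrambled shRNA. Members and the 28 lists were chosen with earlier results of these data known. The fit was tested on simulated data. Alternatives covered scaling, filters, probe set choice, priors, weights, thresholds, a replicate block and left-out arrays; leaving out scrambled shRNA replicate 3 beside the comparison with scrambled shRNA was chosen after seeing the data. Figures were drawn with matplotlib 3.10.9.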

Additional observations from a re-analysis of the deposited data

How the results depend on the processing

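Over the 19064 probe sets the report counted 622 calls, 394 higher and 228 lower. The counts stayed within 1.5 times of these under quantile normalization, median centring and without the 40% of lowest mean. They were 177, 116 and 61 from the 6 arrays alone, 1031, 652 and 379 with a trended robust prior, and 2030, 1110 and 920 with array weights. Adjusted p under 0.01 gave 82, 49 and 33, and at least 1.5-fold gave 98, 50 and 48. Without scrambled shRNA replicate 3 there were 968, 585 and 383. Leaving out each of the 6 arrays in turn gave 79 to 581, 44 to 363 and 35 to 218, the fewest without empty vector replicate 2. With the replicate block there were 819 calls, 468 higher and 351 lower. The deviations of same-numbered empty vector and knockdown arrays correlated at 0.0934, -0.107 and 0.0895. These values cannot decide whether such arrays shared more than a number. No named gene among 103 changed direction in any alternative run. Quantile normalization ended the calls for 4 of them, the mean of all probe sets for 9, the 6 arrays alone for 37, adjusted p under 0.01 for 47 and at least 1.5-fold for 45. Of the 9 gene lists with 0 calls, 8 gained 1 or more in an alternative, at most 5 in 1 direction (G1/S genes, lower, with array weights). The cause of these shifts was not tested. With 3 arrays a group, most called genes had differences above 0.3, and 51 of the 416 lay below it.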

Other observations

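Of 4310 genes with more than 1 probe set, 326 had a called probe set, and in 19 of these all probe sets were called the same way. In ADAM19, RABEP2 and TAF6L probe sets were called in opposite directions. ADAM19, a membrane metalloprotease gene, was at -0.25 (adjusted p = 0.048) by a probe set at the 73.2th percentile and at 0.43 (adjusted p = 0.0257) by one at the 37.7th. RABEP2, an endosomal gene, was at 0.55 (adjusted p = 0.0209) and -0.44 (adjusted p = 0.0424). TAF6L, part of a histone acetyltransferase complex, was at -0.55 and 0.42 (adjusted p = 0.0392 for both) by probe sets other than its brightest, which stood at -0.12. For GRIN1, a glutamate receptor subunit, 1 of 5 probe sets read 5.34, 4.66 and 4.81 in empty vector and 5.84, 6.36 and 6.17 in knockdown arrays, without overlap. Its difference of 1.19 (adjusted p = 0.00747) stood beside 0.31 for the brightest probe set and -0.35 to -0.01 for the other 3. These genes were chosen after their values were seen.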
